A study of Mus musculus with 7 samples.

Results

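The 10 genes of fat cells and lipid droplets described here, Adipoq, Lep, Plin1, Plin2, Cidea, Cidec, Fabp4, Pparg, Cd36 and Lpl, were measured in the islet transcriptomes of db/db mice given an adipsin vector. They were taken by symbol, through the Ensembl identifier of each row, and all 10 of 10 had a row among the 51912 genes of the count table. The AAV-Adipsin group was 3 db/db mice given an adeno-associated virus (AAV) encoding adipsin, and the AAV-GFP group was 4 db/db mice given an AAV encoding green fluorescent protein. All mice thus carried the db mutation of the leptin receptor gene, which makes them obese and diabetic, and all received a vector. Islets were taken 4 weeks after the vector and cultured for 12 hours before RNA extraction, and the labels state that each mouse is a biological replicate of its own. The sources used here do not give the age of the mice or the promoter, serotype and dose of the vectors.

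Total counts ran from 29601707 to 43997400 per library, with similar means in the AAV-Adipsin (36292314) and AAV-GFP (36043950) groups. The 12 islet endocrine markers, insulin genes included, were all detected and summed to 179427 to 223879 CPM, counts scaled to the library's size, in AAV-Adipsin and 189686 to 219108 CPM in AAV-GFP. The sample descriptions name replicate 1 of each group by its treatment, and the other 5 libraries carry a db number. These 2 libraries resembled each other across genes (r = 0.66 between their deviations from their group means), so differences within each description style are given beside the pooled ones. Of 16504 genes with enough counts to test, 1 differed between the groups at an adjusted p of 0.05 or less in edgeR's quasi-likelihood test. It was Cfd, the gene of adipsin.

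Fat cells store triglyceride in a lipid droplet coated by perilipins, and CIDE proteins promote the growth and fusion of droplets. Lipoprotein lipase, encoded by Lpl, releases fatty acids from circulating lipoproteins, CD36 takes them up at the cell surface, and FABP4 carries them inside the cell. PPARG is the nuclear receptor that drives fat cell formation, and it binds with a partner, RXR, to repeats of the hexamer AGGTCA. Adipoq and Lep encode the fat hormones adiponectin and leptin. Several of the genes are also used outside fat: Plin2 coats droplets in most cell types, Cd36 and Lpl are made by macrophages and muscle, and Fabp4 by endothelial cells and macrophages.

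Promoter sequences were available for 7 of the 10 genes from RefSeq (GRCm38.p6): Adipoq, Lep, Plin1, Plin2, Cidec, Pparg and Cd36. The 250 bases before the annotated start are printed for 2 genes that islets expressed, Plin2 and Cd36, and for 2 fat cell genes that were close to absent, Adipoq and Plin1. Capitals mark the hexamer AGGTCA, here in its reverse form TGACCT. Plin2 is shown from chr4:86670060-86670309 on the minus strand, Cd36 from chr5:17835897-17836146 on the minus strand, Adipoq from chr16:23146286-23146535 on the plus strand and Plin1 from chr7:79732777-79733026 on the minus strand.
Plin2: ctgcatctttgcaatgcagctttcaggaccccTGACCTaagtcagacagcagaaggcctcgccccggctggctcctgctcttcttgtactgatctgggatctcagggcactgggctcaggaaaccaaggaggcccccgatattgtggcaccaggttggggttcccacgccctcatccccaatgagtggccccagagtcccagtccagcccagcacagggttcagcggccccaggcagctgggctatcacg
Cd36: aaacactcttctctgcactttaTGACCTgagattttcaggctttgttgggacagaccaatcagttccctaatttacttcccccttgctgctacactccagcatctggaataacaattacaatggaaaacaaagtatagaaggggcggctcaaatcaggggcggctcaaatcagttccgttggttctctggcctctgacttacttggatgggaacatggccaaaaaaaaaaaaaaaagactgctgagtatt
Adipoq: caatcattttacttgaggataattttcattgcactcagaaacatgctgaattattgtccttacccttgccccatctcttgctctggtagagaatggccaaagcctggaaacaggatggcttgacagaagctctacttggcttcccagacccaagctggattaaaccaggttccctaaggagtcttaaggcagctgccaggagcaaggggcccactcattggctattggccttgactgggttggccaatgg
Plin1: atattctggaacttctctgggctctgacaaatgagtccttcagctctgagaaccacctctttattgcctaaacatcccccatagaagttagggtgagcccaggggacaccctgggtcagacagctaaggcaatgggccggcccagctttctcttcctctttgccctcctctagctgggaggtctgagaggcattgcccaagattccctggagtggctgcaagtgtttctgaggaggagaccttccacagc

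The hexamer, searched on both strands, began 218 bases before the start of Plin2 and 228 bases before the start of Cd36. The Cd36 start used here lies inside the span of the gene on chromosome 5 (17781690 to 17888801), so it is an internal start. It also began 28 and 9 bases before the first and second of 3 annotated starts of Pparg. The windows of Adipoq, Lep, Plin1 and both starts of Cidec did not hold these letters, nor did the remaining start of Pparg. The hexamer occurred in 4607 of 32851 promoter windows of this length, or 14.0%. The repeat with a single spacer base, AGGTCANAGGTCA, occurred in 11 of the 32851 windows (0.0335%) and in none of the members. A match is a description of the letters and not a binding site. The search covered these exact letters in 250 bases, so a missing match says nothing of other or more distant sites. Whether the hexamer bears on the level of a gene was not tested.

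Of 8 genes listed as fat cell markers, Adipoq, Lep, Plin1, Retn and Adrb3 had at most 2 counts in any islet library, Adig and Cidec had up to 4 and 11, and Trarg1 had 32 to 65. Cfd had 839 to 3965 counts in each AAV-Adipsin library. Adipoq (ENSMUSG00000022878, chromosome 16, 23146536 to 23158028 of GRCm38, plus strand) had 2, 0 and 0 counts in AAV-Adipsin and 1, 0, 1 and 1 counts in AAV-GFP. Lep (ENSMUSG00000059201, chromosome 6, 29060220 to 29073877, plus strand) had 0 counts in all 7. Plin1 (ENSMUSG00000030546, chromosome 7, 79720218 to 79732903, minus strand), the perilipin of fat cells, had 2, 0 and 0 counts in AAV-Adipsin and 0, 1, 1 and 0 counts in AAV-GFP. A count of 0 allows up to 3 counts in a library, which is 0.0682 to 0.101 CPM depending on its total, so every value of these 3 genes was at or under that limit and no fold change is given for them.

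Further genes restricted to fat cells, the hormone resistin (Retn) and the beta-3 adrenergic receptor (Adrb3), had 1 count in AAV-GFP replicate 3 and 0 counts elsewhere. Adipoq, Lep, Plin1, Retn and Adrb3 together had 4 counts of 108876943 in AAV-Adipsin and 6 counts of 144175799 in AAV-GFP. Cox8b, a respiratory chain gene of brown fat and muscle, and Car3, a carbonic anhydrase of white fat and muscle, had 0 counts in all 7 libraries, and Elovl3, a fatty acid elongase of brown fat, had at most 1. The sum of all 8 fat cell defining markers, which add Cidec, Trarg1 and Adig, was 1.60 to 1.90 CPM in AAV-Adipsin and 1.31 to 1.80 CPM in AAV-GFP. Most of it came from Trarg1, a regulator of glucose transporter traffic, which had 58, 55 and 60 counts in AAV-Adipsin and 65, 42, 59 and 32 counts in AAV-GFP.

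Cfd, which is itself abundant in fat tissue, had 3965, 839 and 1481 counts in AAV-Adipsin and 1, 0, 0 and 0 counts in AAV-GFP. All 3 AAV-Adipsin libraries were above all 4 AAV-GFP libraries (edgeR adjusted p = 0.0420; exact two-sided permutation p = 0.0571, the smallest that 3 against 4 libraries can give). The call was made in 8 of 16 alternative settings and lost in 5 of the 7 that left out a library, namely each AAV-GFP library (adjusted p 0.241 to 1.00) and AAV-Adipsin replicate 3 (0.0634). The log2 fold change was 11.3 to 13.9 in all 16. Its size is poorly fixed, because AAV-GFP held 1 Cfd count in total. The value of 13.9 came without AAV-GFP replicate 1, where no AAV-GFP count remained. Across the AAV-Adipsin libraries there were 6285 Cfd counts to 2 Adipoq counts, a ratio of 3142 with a 95% interval of 870 to 25954 for counting error alone. At the upper limit of the Adipoq count, the libraries held 0.115 Adipoq counts per 100 Cfd counts. With the 5 markers summed, 6285 Cfd counts stood against 4, a ratio of 1571 with an interval of 613 to 5769. These 5 are the markers with the fewest counts. With all 8 fat cell defining markers the sum was 192, of which Trarg1 gave most, and the ratio was 32.7 with an interval of 28.4 to 38.0. In the single AAV-Adipsin libraries it was 58.3, 14.0 and 23.1. The 4 counts of the 5 markers all came from AAV-Adipsin replicate 1, which also had the most Cfd, and the other 2 libraries had 839 and 1481 Cfd counts with none. No fat tissue was sequenced in the samples used here, so the same ratio in fat was not measured, and counts per gene do not separate vector transcripts from those of the animal's own Cfd.

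**Figure D1:**
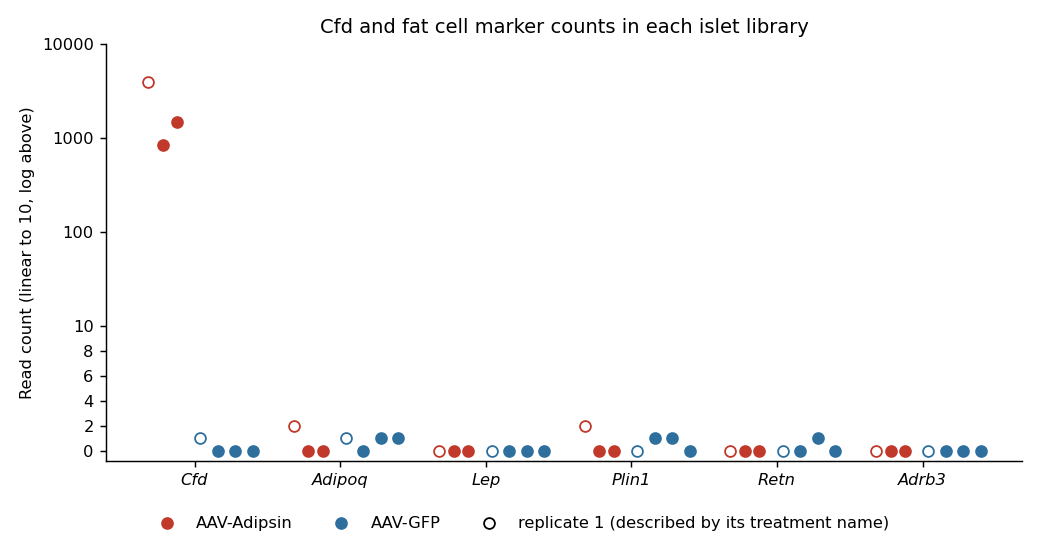
Read counts of Cfd and of 5 fat cell genes in each islet library, AAV-Adipsin in red and AAV-GFP in blue, on an axis that is linear to 10 and logarithmic above; open circles are replicate 1. The 3 AAV-Adipsin libraries had 839 to 3965 counts of Cfd, and no library of either group had more than 2 counts of any fat cell gene shown. Of 8 fat cell markers listed, the 5 shown are those with at most 3 counts in every library. Trarg1, which is not shown, had 32 to 65 counts.

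The other members were expressed at very different levels. Per length, as TPM (counts divided by the summed exon length of the gene and scaled to the same total in each library), Plin2 led with 47.8 ± 11.0 TPM in AAV-Adipsin (SD, n = 3) and 40.2 ± 7.15 TPM in AAV-GFP (SD, n = 4), rank 2614 of 17658 detected protein-coding genes. Pparg followed at rank 4031, Fabp4 at 5764, Cd36 at 6030, Lpl at 8199, Cidea at 10854 and Cidec at 14474. Adipoq at rank 15975 and Plin1 at 16970 were close to the bottom, and Lep was not detected. Over the 7 libraries Plin2 spanned 31.6 to 60.4 TPM and lay just above Pparg at 21.7 to 31.4 TPM, without overlap. Pparg overlapped with Fabp4 (12.1 to 24.3 TPM) and with Cd36 (13.4 to 28.3 TPM), and the lowest Cd36 value met the highest of Lpl (7.08 to 13.4 TPM). Cidea at 1.10 to 5.07 TPM and Cidec at 0.0694 to 0.338 TPM each lay below the gene before it without overlap.

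The place of Fabp4 in this order depends on the length used. Its exons in the annotation add up to 4489 bases, which is its whole gene, against 896 bases in its longest protein-coding transcript. With transcript lengths Fabp4 reached 66.4 ± 2.67 TPM in AAV-Adipsin (SD, n = 3) and 68.6 ± 19.3 TPM in AAV-GFP (SD, n = 4) and took the first place among the 10, beside Plin2 at 66.3 ± 15.2 TPM in AAV-Adipsin and 55.9 ± 9.86 TPM in AAV-GFP. Lpl, at 10478 against 4115 bases, moved to 21.0 ± 4.78 TPM in AAV-Adipsin and 15.3 ± 2.21 TPM in AAV-GFP. In bulk RNA, fewer cells that make a transcript and less of it per cell cannot be told apart, and this holds for all the levels given here.

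None of the 10 genes was called different between AAV-Adipsin and AAV-GFP. Enough counts to test were found for 6, Plin2, Cidea, Fabp4, Pparg, Cd36 and Lpl, and 0 of these 6 were called by edgeR, against 0.00606% of all genes tested. DESeq2 and limma-voom also called 0 of the 6, where DESeq2 called 0.0243% of all genes. In edgeR 1 of the 6, Lpl, had an unadjusted p under 0.05, where 1.16% of all genes did. That share is below the nominal 0.05, and 0 calls do not show that the genes were unchanged. In all 6 the values of the groups overlapped, while 2.73% of all genes tested had groups that did not. Fold changes were above 0 for 4 of the 6 and below for 2, with a median of 0.24 on the log2 scale, beside a median of -0.01 over all genes tested and an interquartile range of -0.08 to 0.08. That median rested on AAV-Adipsin replicate 2, since it was -0.01 without this library.

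**Figure D2:**
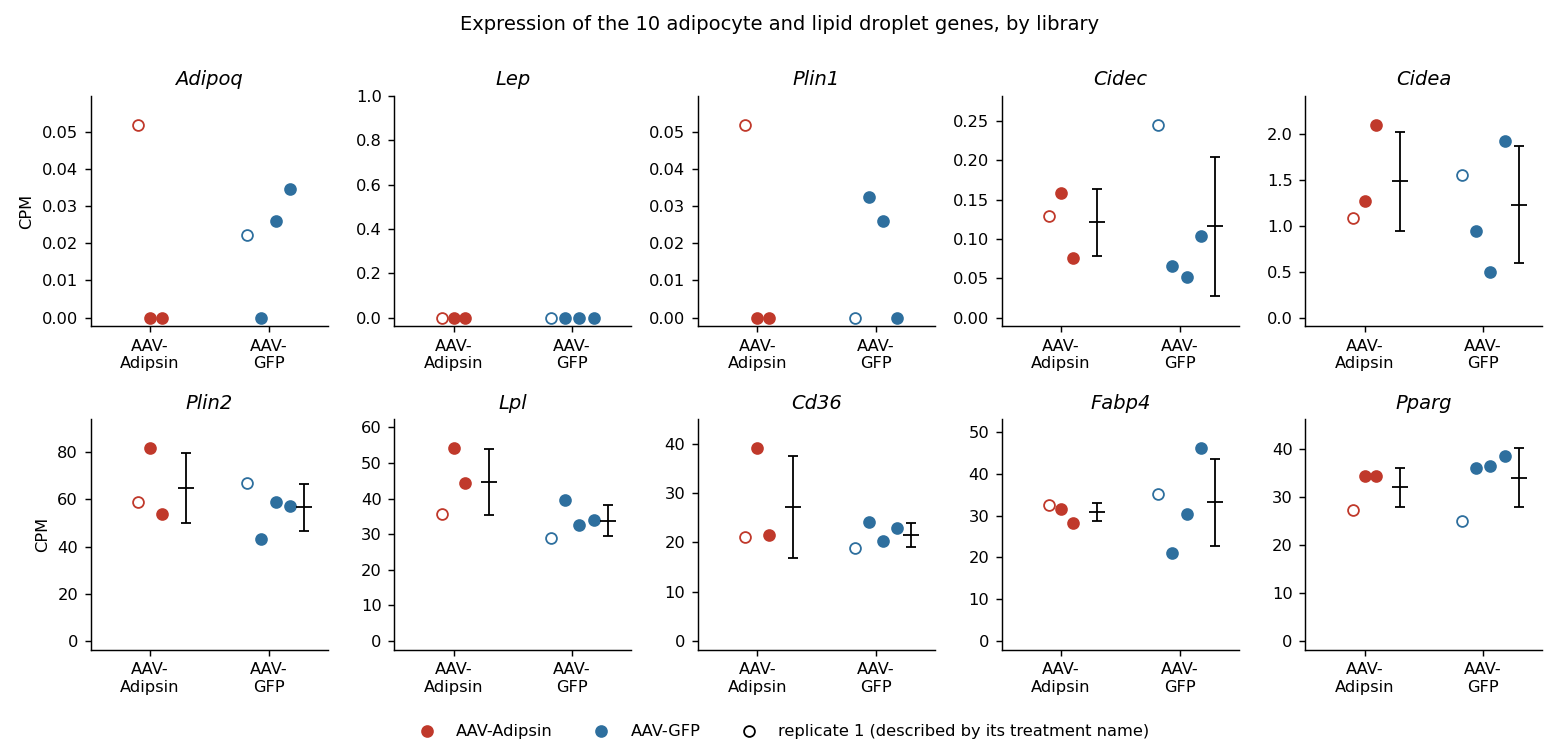
CPM of each of the 10 genes in every library, AAV-Adipsin in red on the left and AAV-GFP in blue on the right of each panel, with open circles for replicate 1 and bars for the mean ± SD where a gene exceeded 3 counts in some library; each panel has its own axis from 0. The groups overlap in every panel, and AAV-Adipsin replicate 2 is the highest library for Plin2, Lpl and Cd36 at 81.6, 54.1 and 39.1 CPM.

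Lpl had the largest fold change of the 6 and the one interval that stayed clear of 0. The gene (ENSMUSG00000015568, chromosome 8, 68880491 to 68907448, plus strand) had 35.5, 54.1 and 44.3 CPM in AAV-Adipsin and 29.0, 39.6, 32.6 and 33.9 CPM in AAV-GFP. Replicates 2 and 3 of AAV-Adipsin were above all AAV-GFP libraries, and replicate 1 lay inside their range. The mean was 44.7 ± 9.30 CPM in AAV-Adipsin (SD, n = 3) and 33.8 ± 4.41 CPM in AAV-GFP (SD, n = 4). The log2 fold change was 0.40 (SE 0.15, 95% interval 0.06 to 0.75) with an unadjusted p of 0.0276 and an adjusted p of 1.00 in edgeR. The exact two-sided permutation p was 0.114. Without AAV-Adipsin replicate 2 the log2 fold change was 0.25. The difference in log2 CPM was 0.29 between the libraries described by treatment name and 0.47 between those described by db number.

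Transcripts of proteins that handle lipoprotein lipase were counted beside it. Gpihbp1, which carries the enzyme to the capillary wall, averaged 14.6 CPM in AAV-Adipsin and 15.2 CPM in AAV-GFP (log2 fold change -0.06). Lmf1, which is needed for the enzyme to fold, averaged 28.9 CPM in AAV-Adipsin and 28.8 CPM in AAV-GFP (log2 fold change 0.01). Sel1l, another factor for its exit from the endoplasmic reticulum, had a log2 fold change of -0.01. Angptl4, an inhibitor of the enzyme, averaged 5.52 CPM in AAV-Adipsin and 4.67 CPM in AAV-GFP, with a log2 fold change of 0.24. A partner of that inhibitor family, Angptl8, averaged 0.618 CPM in AAV-Adipsin and 0.992 CPM in AAV-GFP, and its groups did not overlap (log2 fold change -0.68, SE 0.30, edgeR unadjusted p = 0.0481, adjusted p = 1.00).

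Of the receptors that take up lipoproteins, Lrp1 had the smallest p. It had 33.7, 42.9 and 33.9 CPM in AAV-Adipsin and 28.5, 26.4, 24.2 and 31.3 CPM in AAV-GFP, so all 3 AAV-Adipsin libraries were above all 4 AAV-GFP libraries. The log2 fold change was 0.42 (SE 0.12, edgeR unadjusted p = 0.00836, adjusted p = 1.00), with 0.24 between the treatment-named libraries and 0.49 between the others. Vldlr, a receptor for triglyceride-rich lipoproteins, had a log2 fold change of -0.04. Slc27a4, a fatty acid transport protein, averaged 68.6 CPM in AAV-Adipsin and 72.7 CPM in AAV-GFP without overlap, a log2 fold change of only -0.08. Of the 20 genes of fatty acid uptake and lipase partners, 16 were tested, 8 above and 8 below 0 with a median of -0.002. EdgeR, DESeq2 and limma-voom called 0, and 2 had an unadjusted p under 0.05 in edgeR. Over all genes tested, edgeR called 0.00606% and 1.16% had an unadjusted p under 0.05, the background for this and the following gene lists.

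Cd36 (ENSMUSG00000002944, chromosome 5, 17781690 to 17888801, minus strand) had 21.0, 39.1 and 21.4 CPM in AAV-Adipsin and 18.8, 24.2, 20.2 and 22.9 CPM in AAV-GFP. One library stood apart, AAV-Adipsin replicate 2, and the other 2 AAV-Adipsin libraries lay within the AAV-GFP range. The mean was 27.2 ± 10.3 CPM in AAV-Adipsin (SD, n = 3) and 21.5 ± 2.45 CPM in AAV-GFP (SD, n = 4). The log2 fold change was 0.34 (SE 0.22, 95% interval -0.16 to 0.83; edgeR unadjusted p = 0.160, adjusted p = 1.00; exact permutation p = 0.514). Without AAV-Adipsin replicate 2 it was -0.01. The difference was 0.16 in the treatment-named pair and 0.37 between the other libraries.

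Fabp4 (ENSMUSG00000062515, chromosome 3, 10204088 to 10208576, minus strand) had 32.5, 31.6 and 28.3 CPM in AAV-Adipsin and 35.2, 21.0, 30.4 and 46.1 CPM in AAV-GFP. The AAV-Adipsin libraries lay close together, inside the wide range of AAV-GFP, whose replicate 4 was the highest and replicate 2 the lowest of all. The mean was 30.8 ± 2.21 CPM in AAV-Adipsin (SD, n = 3) and 33.2 ± 10.5 CPM in AAV-GFP (SD, n = 4). Its log2 fold change was -0.11 (SE 0.22, 95% interval -0.62 to 0.41; edgeR unadjusted p = 0.646, adjusted p = 1.00; exact permutation p = 0.800), and it was 0.09 without AAV-GFP replicate 4. Within the description styles the difference was -0.11 and -0.05. Its relative Fabp5 averaged 22.6 ± 9.96 TPM in AAV-Adipsin (SD, n = 3) and 18.0 ± 3.54 TPM in AAV-GFP (SD, n = 4), and its counts are uncertain because the genome holds near-identical processed copies. Of the summed TPM of Fabp3, Fabp4 and Fabp5, Fabp4 made up 29.9 to 46.6% by exon length and 42.6 to 62.5% by transcript length.

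Most perilipin transcripts in these islets were those of Plin2. The gene (ENSMUSG00000028494, chromosome 4, 86648386 to 86670060, minus strand) took 85.7 to 90.5% of the summed TPM of the 5 perilipins in a library. Plin3, which moves between cytosol and droplets, took 9.22 to 14.0%, at a mean of 5.42 TPM in AAV-Adipsin and 5.22 TPM in AAV-GFP, and Plin1, Plin4 and Plin5 took the small rest. Plin2 had 59.0, 81.6 and 53.8 CPM in AAV-Adipsin and 67.0, 43.2, 59.1 and 57.2 CPM in AAV-GFP. AAV-Adipsin replicate 2 was the highest library, and the other 2 of its group fell among the AAV-GFP values. The mean was 64.8 ± 14.8 CPM in AAV-Adipsin (SD, n = 3) and 56.6 ± 9.93 CPM in AAV-GFP (SD, n = 4). AAV-Adipsin over AAV-GFP, the log2 fold change was 0.19 (SE 0.18, 95% interval -0.21 to 0.60; edgeR unadjusted p = 0.306, adjusted p = 1.00; exact permutation p = 0.514). The difference was -0.18 in the treatment-named pair and 0.33 between the other libraries, and without AAV-Adipsin replicate 2 the fold change was -0.0003.

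Cidea was the main CIDE gene, at 85.5 to 96.9% of the summed TPM of Cidea, Cideb and Cidec in a library, at low absolute counts. It (ENSMUSG00000024526, chromosome 18, 67343604 to 67367785, plus strand) had 42, 40 and 84 counts in AAV-Adipsin and 70, 29, 19 and 56 counts in AAV-GFP. In CPM these are 1.09, 1.27 and 2.10 in AAV-Adipsin and 1.56, 0.942, 0.494 and 1.93 in AAV-GFP, so AAV-Adipsin replicate 3 was the highest and AAV-GFP replicate 3 the lowest. The mean was 1.49 ± 0.541 CPM in AAV-Adipsin (SD, n = 3) and 1.23 ± 0.639 CPM in AAV-GFP (SD, n = 4). The log2 fold change of 0.28 had the widest interval of the 6, from -0.75 to 1.30 (SE 0.45, edgeR unadjusted p = 0.552, adjusted p = 1.00; exact permutation p = 0.571). It was -0.49 in the treatment-named pair, 0.72 between the other libraries and -0.05 without AAV-Adipsin replicate 3. A gene on the opposite strand, B430212C06Rik, overlaps the start of Cidea and had 1 to 7 counts per library. Cidec (ENSMUSG00000030278, chromosome 6, 113424634 to 113435760, minus strand), the CIDE protein of the large droplets of white fat cells, had 5, 5 and 3 counts in AAV-Adipsin and 11, 2, 2 and 3 counts in AAV-GFP, too few to test.

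**Figure D3:**
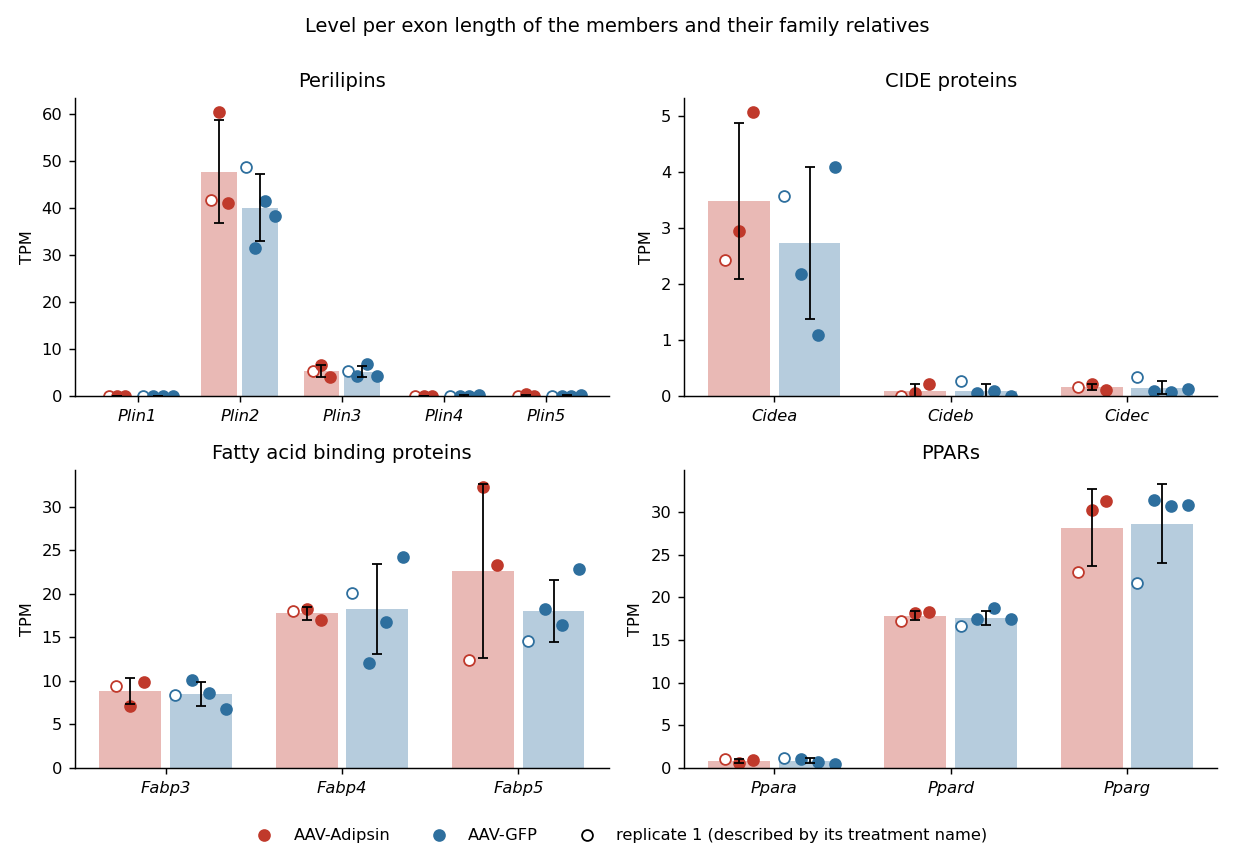
TPM by exon length of the members and their family relatives, with bars for group means, error bars for SD, points for libraries (AAV-Adipsin red and left, AAV-GFP blue and right) and open circles for replicate 1; each panel has its own axis from 0. Plin2 took 85.7 to 90.5% of the perilipin sum and Cidea 85.5 to 96.9% of the CIDE sum in a library, while Fabp4 and Fabp5 overlapped and Pparg, at 55.0 to 63.2% of the PPAR sum, exceeded Ppard in each.

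Of 31 other genes of droplet formation and lipolysis, 27 had enough counts to test and 4 did not, and edgeR, DESeq2 and limma-voom called 0 of the 27 (1 at an unadjusted p under 0.05 in edgeR). Fold changes lay above 0 for 11 and below 0 for 16, with a median of -0.02. Rab7 and Rab18, small GTPases found on droplets among other membranes, averaged 299.6 and 137 CPM in AAV-Adipsin and 317 and 136 CPM in AAV-GFP. Fitm2 and Bscl2, which act in droplet budding from the endoplasmic reticulum, averaged 115 and 54.9 CPM in AAV-Adipsin and 124 and 61.3 CPM in AAV-GFP, and in both genes the groups did not overlap (log2 fold changes -0.11 and -0.16). Hsd17b13, a droplet enzyme best known from liver, had 5.29, 6.69 and 5.58 CPM in AAV-Adipsin and 6.90, 10.2, 15.3 and 7.66 CPM in AAV-GFP, without overlap. Its log2 fold change was -0.77 (SE 0.27, edgeR unadjusted p = 0.0200, adjusted p = 1.00). The lipases Pnpla2 and Lipe averaged 68.4 and 7.42 CPM in AAV-Adipsin and 74.8 and 7.34 CPM in AAV-GFP.

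Pparg (ENSMUSG00000000440, chromosome 6, 115360951 to 115490399, plus strand) was measured at 27.3, 34.4 and 34.4 CPM in AAV-Adipsin and 25.0, 36.0, 36.5 and 38.5 CPM in AAV-GFP. In both groups replicate 1, the library described by treatment name, was the lowest, and the rest of the libraries lay between 34.4 and 38.5 CPM. The mean was 32.0 ± 4.09 CPM in AAV-Adipsin (SD, n = 3) and 34.0 ± 6.08 CPM in AAV-GFP (SD, n = 4). Its log2 fold change was -0.09 (SE 0.16, 95% interval -0.44 to 0.27; edgeR unadjusted p = 0.594, adjusted p = 1.00; exact permutation p = 0.629). It was 0.12 in the treatment-named pair, -0.11 between the other libraries and 0.02 without AAV-Adipsin replicate 1. An antisense gene, Gm44079, lies within Pparg and had at most 1 count in a library.

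Among the 3 PPAR receptors, Pparg made up 55.0 to 63.2% of their summed TPM by exon length, Ppard 35.1 to 42.1% and Ppara 1.00 to 2.93%. By transcript length Pparg and Ppard were of nearly equal size, at 43.4 to 51.4% and 47.3 to 54.7%. Of 20 PPAR partners and target genes, a list that also holds Plin2, 19 were tested, 12 above and 7 below 0 with a median of 0.04. None of the 19 was called by edgeR, DESeq2 or limma-voom, and 0 had an unadjusted p under 0.05 in edgeR. Ucp2, a mitochondrial carrier known in beta cells, had the most CPM of them, with 632 CPM in AAV-Adipsin and 712 CPM in AAV-GFP (log2 fold change -0.17). Ppargc1a, a coactivator of PPARG, averaged 3.52 CPM in AAV-Adipsin and 2.50 CPM in AAV-GFP (log2 fold change 0.49, SE 0.27, edgeR unadjusted p = 0.0989). The corepressor Ncor1 had a log2 fold change of 0.04.

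**Figure D4:**
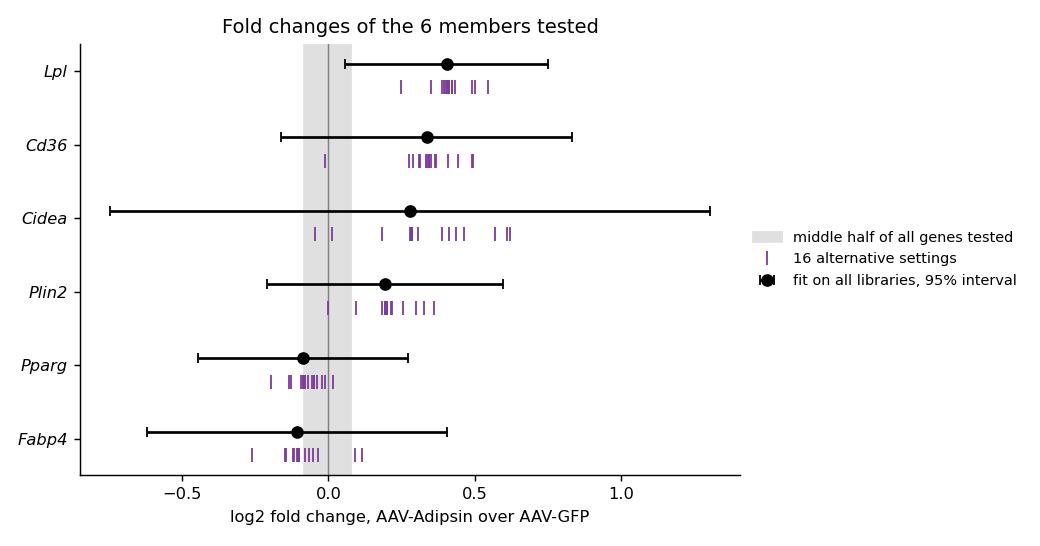
Log2 fold change of the 6 members tested, AAV-Adipsin over AAV-GFP, with points and 95% intervals from edgeR on all libraries, purple ticks for 16 alternative settings, and a grey band for the interquartile range of all genes tested. The interval of Lpl runs from 0.06 to 0.75 and those of the other 5 genes include 0; the ticks of Lpl are the only ones that stay on one side of 0.

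Transcripts of the fat hormone receptors were detected, although the hormones' own transcripts were not detected or nearly so. The leptin receptor transcript was low. Adipor1 and Adipor2, the adiponectin receptors, averaged 159.8 and 107 CPM in AAV-Adipsin and 168 and 109 CPM in AAV-GFP. Cdh13, a surface protein that binds adiponectin, averaged 4.51 CPM in AAV-Adipsin and 3.35 CPM in AAV-GFP without overlap (log2 fold change 0.43, SE 0.20, edgeR unadjusted p = 0.0651, adjusted p = 1.00). Lepr, the leptin receptor gene that is mutated in all of these mice, had 0.278 CPM in AAV-Adipsin and 0.265 CPM in AAV-GFP. Of the 4 receptors, 2 lay above and 2 below 0 with a median of 0.03, and edgeR, DESeq2 and limma-voom called 0 (0 at an unadjusted p under 0.05 in edgeR).

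Among the other fat cell genes, those of fat synthesis, which many cell types use, were well measured. Fasn, the fatty acid synthase, averaged 140.1 CPM in AAV-Adipsin and 136 CPM in AAV-GFP, and Gpd1, which supplies the glycerol backbone, averaged 72.5 CPM in AAV-Adipsin and 73.4 CPM in AAV-GFP. Rbp4, a retinol carrier made in liver and fat, averaged 42.0 CPM in AAV-Adipsin and 45.1 CPM in AAV-GFP. Acaca, which makes malonyl-CoA, had a log2 fold change of 0.11, and Thrsp, a regulator of lipid synthesis, one of -0.25. Cdo1, a cysteine dioxygenase abundant in liver and fat, had 3.32, 3.30 and 2.78 CPM in AAV-Adipsin and 3.74, 4.03, 4.13 and 5.18 CPM in AAV-GFP, without overlap. Its log2 fold change was -0.44 (SE 0.18, edgeR unadjusted p = 0.0367, adjusted p = 1.00). Of 30 other fat cell symbols listed, 29 had a row and 20 were tested, 10 above and 10 below 0 with a median of 0.005. EdgeR, DESeq2 and limma-voom called 0 (1 at an unadjusted p under 0.05 in edgeR). Over all 5 of these lists, with each gene counted once, the groups did not overlap in 9 of 82 genes tested, 2 of them higher in AAV-Adipsin. Over all genes tested they did not overlap in 451 of 16504 (2.73%). Of the 82, edgeR called 0, and 4 had an unadjusted p under 0.05, where 191 of the 16504 did (1.16%). The lists were not tested as sets.

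The members were set beside marker sums of other cell types in the islet preparation, and none of the 30 relations passed the adjustment for multiple tests. The sum of the 14 macrophage markers was 152, 328 and 169 CPM in AAV-Adipsin and 138, 159, 144 and 202 CPM in AAV-GFP. The highest sum was that of AAV-Adipsin replicate 2, the library that was also highest for Cd36, Lpl and Plin2. All 11 macrophage markers tested had fold changes above 0, with a median of 0.55, and edgeR called 0 of them. Clec4f, a marker of liver macrophages, was at 0. Over all genes tested, 46.2% were above 0, which is the background for this and the following marker lists. The markers of a list are not independent of each other. Only AAV-Adipsin replicate 2 had a macrophage sum outside the AAV-GFP range. The exact permutation p of the sum was 0.400.

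Over the 7 libraries, Cd36 followed the macrophage sum with a Pearson r of 0.97 (exact permutation p = 0.0143) and a Spearman rho of 0.89 (exact permutation p = 0.0123). Adjusted over the 30 relations computed between 6 members and 5 marker sums, these became 0.277 and 0.357, and r was 0.67 without the 2 libraries farthest from the median macrophage sum. For Lpl, r was 0.83 (exact permutation p = 0.0371, adjusted 0.277) and rho was 0.79 (exact permutation p = 0.0480, adjusted 0.360), and r was 0.998 without the same 2 libraries, AAV-Adipsin replicate 2 and AAV-GFP replicate 4. Plin2 gave r = 0.70 (exact permutation p = 0.135, adjusted 0.450) but rho = -0.11 (exact permutation p = 0.840, adjusted 1.00), and r turned to -0.71 without those libraries. The 2 and 5 libraries of the description styles are too few for a value within each. High values on 5 libraries were not particular to macrophages. With the sum of the endothelial markers, r without AAV-GFP replicates 4 and 2 was 0.86 for Cd36 and 0.94 for Lpl. Over all 7 libraries it was 0.45 for Cd36 (exact permutation p = 0.315) and 0.36 for Lpl (exact permutation p = 0.434). The part of macrophages or endothelial cells in the fold changes of Cd36 and Lpl was not tested.

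Fabp4 was highest in AAV-GFP replicate 4, where the stromal markers also peaked. Their sum was 245, 259 and 264 CPM in AAV-Adipsin and 222, 182, 176 and 405 CPM in AAV-GFP, with 10 of 12 markers above and 2 below 0 in fold change and a median of 0.19. For Fabp4 and the stromal sum r was 0.83 (exact permutation p = 0.0389, adjusted 0.277) and rho was 0.43 (exact permutation p = 0.354, adjusted 0.784). Without the 2 libraries farthest from the median, AAV-GFP replicates 4 and 3, r was 0.58. Dpp4 made up much of the sum. With Dpp4 left out of it, r was 0.84 over all 7 libraries and -0.33 without the 2 then farthest, AAV-GFP replicates 4 and 2, so that relation rested on those. The 12 endothelial markers, relevant because capillary cells make Fabp4, summed to 701 to 826 CPM in AAV-Adipsin and 555 to 916 CPM in AAV-GFP, with 11 of 12 above 0 in fold change and a median of 0.19. For Fabp4 and this sum r was 0.74 (exact permutation p = 0.0534, adjusted 0.277) and rho was 0.57 (exact permutation p = 0.200, adjusted 0.750), and r was -0.24 without AAV-GFP replicates 4 and 2. The part of these cells in the Fabp4 values was not tested.

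For Cidea, the acinar and the stromal sums gave the relations with the smallest p. The acinar markers mark the enzyme-secreting cells around islets. Their 12 markers summed to 3798, 12221 and 3210 CPM in AAV-Adipsin and 5032, 8719, 17030 and 2614 CPM in AAV-GFP, and all 12 had fold changes below 0 with a median of -0.39. The library with the most acinar transcripts, AAV-GFP replicate 3, had the least Cidea. For this pair r was -0.80 (exact permutation p = 0.0341, adjusted 0.277), rho was -0.79 (exact permutation p = 0.0480, adjusted 0.360), and r was -0.74 without the 2 farthest libraries. With the stromal sum, Cidea had r = 0.72 (exact permutation p = 0.0554, adjusted 0.277) and rho = 0.86 (exact permutation p = 0.0238, adjusted 0.357), and r was 0.59 without AAV-GFP replicates 4 and 3. With Dpp4 left out of the stromal sum, r was 0.69 (exact permutation p = 0.0748) and rho was 0.71 (exact permutation p = 0.0881). Neither relation passed the adjustment, and the part of acinar and stromal RNA in the Cidea values was not tested. Of the islet endocrine markers, 11 of 12 lay below 0 in fold change with a median of -0.06, and no member's relation to their sum had an unadjusted exact permutation p under 0.05.

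**Figure D5:**
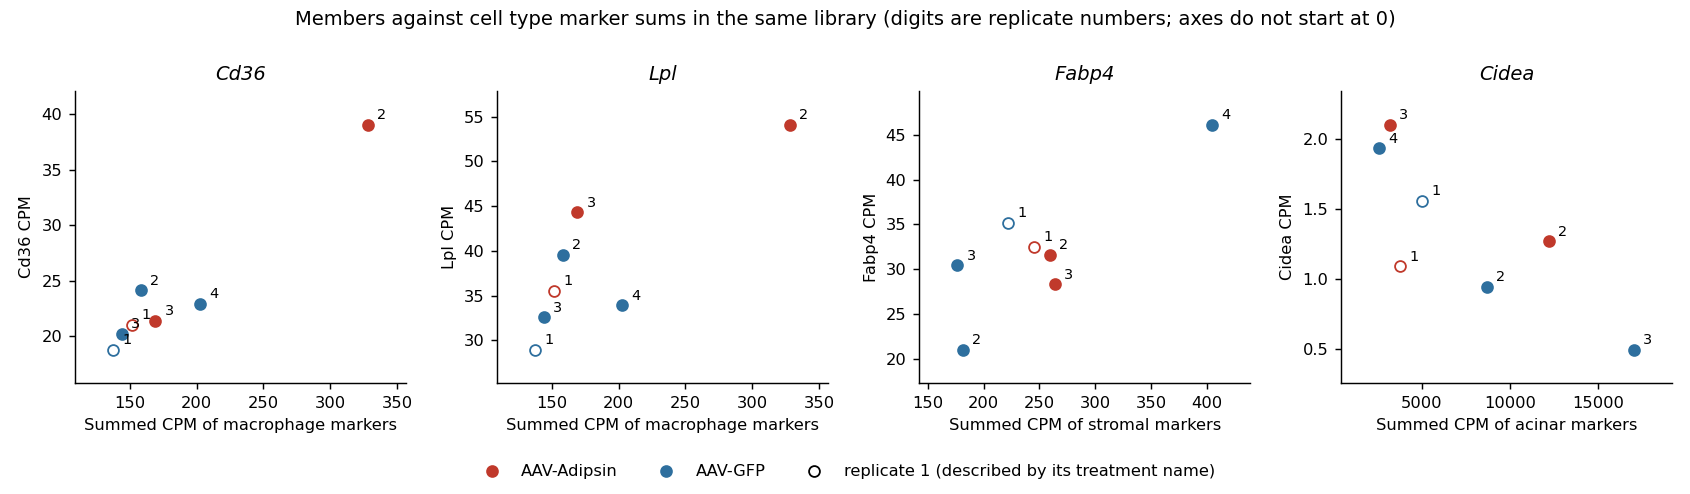
CPM of 4 members in each library against the summed CPM of a cell type's markers in the same library, AAV-Adipsin red and AAV-GFP blue, open circles for replicate 1, digits for replicate numbers; axes do not start at 0. AAV-Adipsin replicate 2 lies far to the right for macrophage markers (328 CPM), AAV-GFP replicate 4 for stromal markers (405 CPM) and AAV-GFP replicate 3 for acinar markers (17030 CPM). The 4 relations shown were picked as those with the smallest exact permutation p of Pearson r among 30. Each had an adjusted p of 0.277. The stromal sum shown includes Dpp4.

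No pair of members had a relation over the 7 libraries that passed the adjustment for multiple tests. Of the 15 pairs among the 6 tested, Cd36 and Lpl were the closest, with r = 0.85 (exact permutation p = 0.0131, adjusted 0.196) and rho = 0.82 (exact permutation p = 0.0341, adjusted 0.512). Without AAV-Adipsin replicate 2 and AAV-GFP replicate 1, r was 0.29, so the size of r depended on those libraries. They were the 2 farthest from the median of Cd36, and leaving them out narrows its range. Among 11917 genes, those most like each member in log2 CPM over the 7 libraries were not other members. For Cd36 they were Phldb3, Rab7b and Rtkn (r = 0.98, 0.98 and 0.96), and for Lpl they were Bco1, Ly75 and Slco3a1 (0.99, 0.98 and 0.97). For Plin2 they were Ctsh, Mpp1 and Ccdc120 (0.96, 0.95 and 0.94), for Fabp4 Zdhhc12, Ppp3cc and Trappc6a (0.995, 0.99 and 0.98), and for Pparg Dph5, Klf16 and Stim2 (0.996, 0.99 and 0.99). These are the highest values of a search over all 11917 genes with 7 libraries, and they describe likeness only.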

How the data were processed

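Messenger RNA of islets from 7 db/db mice was sequenced with a stranded kit, per the labels' protocols. The authors deposited whole-number, unnormalised read counts per Ensembl gene. STAR and the build GRCm38 (mm10) are named per the submitters' processing notes. The aligner's version, how reads were counted and whether by strand were not given in the sources used here, and genes that overlap on opposite strands may therefore share reads. Symbols, coordinates and lengths came from GENCODE release M21 (GRCm38), which matched 51719 of 51912 identifiers; 193 had no match and 22479 had no count in any library.

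Genes were filtered by filterByExpr, scaled by TMM and tested with edgeR 4.0.16 (robust quasi-likelihood F test, two-sided, R 4.3.3), with Benjamini-Hochberg adjustment over all genes tested called at 0.05 or less. Log2 fold changes set AAV-Adipsin over AAV-GFP. SEs were derived from the F statistic and intervals are 95% t intervals. CPM values use TMM-scaled library sizes, and log2 CPM a prior count of 2. Exact two-sided permutation tests covered the 35 divisions of 7 libraries into 3 and 4, or 5040 pairings for correlations. Ratios of counts carry 95% Clopper-Pearson intervals, and these and the floor of 3 counts cover counting error only. Alternatives were other scalings and filters, DESeq2 1.42.0, limma-voom (limma 3.58.1), a replicate block, description style as a batch, removal of each library or of both treatment-named libraries, and, added after the data were seen, transcript lengths, the stromal list without Dpp4 and the sum of all 8 fat cell markers. The fits were tested on simulated counts.

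The members and lists were chosen with earlier results of these data known. From each companion list the text names the 3 genes with the highest mean CPM, up to 3 with the smallest p, and fat-restricted genes at or under 3 counts; relatives, lipase partners, lipases, Trarg1 and genes at 0 beyond that rule were named for their role. Some genes that the rule names are not reported here. The genes called most alike had the highest Pearson r of log2 CPM, among genes with a mean log2 CPM of at least 1, a level Cidea did not reach.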

Additional observations from a re-analysis of the deposited data

How the results depend on the processing

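The count of members called was 0 under each of the 16 alternatives. The direction of Lpl held in 16 of 16, with log2 fold changes of 0.25 to 0.54 and a smallest adjusted p of 0.265, under the replicate block. Each other member changed sign under 1 alternative, and Fabp4 under 2: without AAV-Adipsin replicate 2 for Plin2 and Cd36, replicate 3 for Cidea and replicate 1 for Pparg, and for Fabp4 without AAV-GFP replicate 4 and under the replicate block. Only AAV-GFP had a replicate 4, so under the block that library did not inform the group comparison, for Lpl as for the others. The 2 Fabp4 values, 0.11 under the block and 0.09 without that library, are therefore not separate results. Of the same-numbered libraries, only those of replicate 1 resembled each other (r of deviations 0.66, against -0.01 for replicate 2 and 0.01 for replicate 3). The replicate numbers were thus not a pairing of all samples. The count of all genes called stayed at 1 with the replicate block. That count of all genes called was 0 with no filter on low counts, 0 with limma-voom, 0 without both treatment-named libraries, 4 with DESeq2, and 0 to 1 when 1 library was left out (0 in 5 of 7). The cause was not tested. Each call lost was that of Cfd, whose log2 fold change stayed at 11.3 to 13.9. With 1 Cfd count in AAV-GFP, that size is poorly fixed. Fabp4 ranked 3 among the members in TPM by exon length, 4 in CPM without a length and 1 by transcript length, since only the length differs between these. Adipoq, Lep, Plin1 and Cidec had too few counts to pass the filter of the main test. Whether depth or absence of the transcript gave their low counts was not tested.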
